A study of Mus musculus with 6 samples.

Results

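A set of 10 genes linked to the red cell lineage was followed in sorted mouse haematopoietic stem cells: the adult alpha globin genes Hba-a1 and Hba-a2, the adult beta globin genes Hbb-bs and Hbb-bt, the haem synthesis gene Alas2, the transcription factor genes Gata1 and Klf1, the receptor gene Epor, the water channel gene Aqp1 and the carbonic anhydrase gene Car2. They were found by gene name among the 55471 gene IDs of the deposited expression table, and each of the 10 names matched 1 ID. The set was chosen from the difference between induced and uninduced libraries in these same data, so the differences of the 10 genes are given as a description, without p-values, and the calls counted among them support nothing.

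All 6 libraries came from mice labelled with the genotype ETV6-RUNX1, a fusion of the transcription factor genes ETV6 and RUNX1 known from childhood B-cell precursor leukaemia. Surface staining defined the stem cell gate (Lin-, Kit+, Sca1+, CD48-, CD150+). The 3 uninduced libraries are from mice carrying the fusion without doxycycline, and the 3 induced libraries are from mice fed doxycycline for 2 weeks to switch the fusion on. Induction and doxycycline therefore differ together and cannot be told apart. The mouse age, the strain, the promoter that drives the fusion and whether each library came from 1 animal or a pool are not given in the sources used here. P-values measure the spread between these libraries.

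Haemoglobin is built from paired alpha and beta globin chains, each holding a haem group. In maturing red cell precursors GATA1 and KLF1 act on the globin and haem synthesis genes, and erythropoietin signals through its receptor EPOR to keep these precursors alive. Haematopoietic stem cells lie upstream of that programme and carry little globin transcript, while CAR2 is abundant in stem cells and in several blood lineages.

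The globin genes form 2 pairs of closely related copies. On the genome build GRCm38, Hba-a1 (ENSMUSG00000069919) lies at chr11:32283511-32284465 and Hba-a2 (ENSMUSG00000069917) at chr11:32296489-32297298, both on the plus strand. Hbb-bs (ENSMUSG00000052305) lies at chr7:103826534-103828096 and Hbb-bt (ENSMUSG00000073940) at chr7:103812524-103813996, both on the minus strand. The longest coding transcript of each of the 4 genes has 3 exons. The coding sequences are shown around the only base at which the copies differ, because this is where a read from the coding part can tell them apart. The 41 bases are printed 5′ to 3′ with the differing base in capitals, from coding positions 361 to 401 for alpha and 397 to 437 for beta, counted from 1 at the start codon.
Hba-a1: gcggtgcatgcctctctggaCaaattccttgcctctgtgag
Hba-a2: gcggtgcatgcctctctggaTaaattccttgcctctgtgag
Hbb-bs: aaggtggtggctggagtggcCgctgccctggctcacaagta
Hbb-bt: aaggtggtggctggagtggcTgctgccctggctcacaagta

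The alpha copies differed by C381T over 426 coding bases and the beta copies by C417T over 441. Of the windows of 100 bases (the read length) along the longest coding transcript, 56.5% of those of Hba-a1 were also found in Hba-a2, and 62.6% of those of Hbb-bs in Hbb-bt. In the other direction, 74.5% of the windows of Hba-a2 were found in Hba-a1 and 54.8% of those of Hbb-bt in Hbb-bs. No such window was shared between Hba-a1 and Hbb-bs. The split of reads within the alpha pair or within the beta pair is therefore uncertain, and the sum of each pair is given beside the single genes.

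The 250 bases upstream of the RefSeq transcription start were read for 9 of the 10 genes (GRCm38.p6); Car2 had no entry. The last 100 of these are shown for an alpha globin, a beta globin and Epor, since the globin genes were higher and Epor lower in induced cells. Capitals mark matches to 4 short motifs searched on both strands, so that a match can appear as its reverse complement. The motifs were AGATAA (bound by GATA factors), CCNCNCCC (bound by KLF factors), the CCAAT box (CCAAT) and the TATA box form (TATAAN). Hba-a2 is at chr11:32296392-32296491 (plus strand), Hbb-bs at chr7:103827929-103828028 (minus strand) and Epor at chr9:21963577-21963676 (minus strand).
Hba-a2: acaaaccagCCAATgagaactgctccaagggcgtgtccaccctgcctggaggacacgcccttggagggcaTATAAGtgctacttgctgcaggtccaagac
Hbb-bs: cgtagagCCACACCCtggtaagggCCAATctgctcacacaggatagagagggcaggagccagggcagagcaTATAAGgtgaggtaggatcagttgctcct
Epor: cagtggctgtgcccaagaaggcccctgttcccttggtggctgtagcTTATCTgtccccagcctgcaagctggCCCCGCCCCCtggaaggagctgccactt

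The GENCODE gene models start further upstream than the RefSeq start for some genes, so that of the 100 bases before the RefSeq start, 100 were GENCODE exon for Hba-a1, 73 for Hbb-bt, 54 for Klf1, 42 for Alas2, 17 for Hbb-bs and 3 for Hba-a2. Upstream here means upstream of the RefSeq start. All 4 globin windows held the CCAAT box and the form TATAAN. The CCAAT box was also found for Klf1, so 5 of 9 held it, against 33.8% of 32851 RefSeq promoters. The TATA box form was also found for Alas2, again 5 of 9, against 22.7%. AGATAA was found for Hbb-bs, Epor and Alas2 (3 of 9, against 9.99%), and CCNCNCCC for Hbb-bs, Hbb-bt, Gata1, Epor, Aqp1 and Alas2 (6 of 9, against 45.9%). In the Epor and Alas2 windows matches of CCNCNCCC overlap each other. The upstream windows of the alpha copies were identical over the 247 bases that aligned, whereas those of the beta copies matched at 73.3% of aligned bases. GC content of the gene, as the deposited table gives it, was 57.2% for Hba-a1, 46.5% for Hbb-bs and 41.3% for Alas2, so the genes that were higher in induced cells did not share a base composition.

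Levels are in TPM (shares of a library's transcripts corrected for length, which keep no sequencing depth). Columns summed to between 999976 and 999993 TPM, and the number of reads behind them is unknown. Across the 13470 genes tested, whose mean reached 1 TPM, Spearman correlations were 0.884 to 0.903 between libraries of a group and 0.836 to 0.853 between groups. Nuclear protein-coding genes held 26.6% to 32.9% of the TPM in uninduced and 20.5% to 23.2% in induced libraries, and the typical gene was lower in induced libraries, by a median of -0.35 on the log2 scale. Median-of-ratios scaling, which matches the typical gene between libraries, moved the median to 0.0032. Changes are therefore given on the deposited scale, with the rescaled value beside them where it matters.

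The 4 adult globin genes were all several-fold higher in induced stem cells, and Alas2 with them. Epor, at low levels, and Car2 were lower in every induced library on the deposited scale, as 28.2% of all tested genes were. The regulator genes Gata1 and Klf1 had overlapping groups, with a lower mean for Gata1 and a higher one for Klf1 in induced cells. Globin transcripts summed to 54.8, 55.3 and 45.0 TPM in the uninduced libraries and to 443, 380 and 441 TPM in the induced libraries. As a share of nuclear protein-coding transcripts they made up 0.0184%, 0.0168% and 0.0169% against 0.201%, 0.185% and 0.190%. The 3 induced libraries were close to each other and far above the uninduced ones, and no library stood between the groups.

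**Figure D1:**
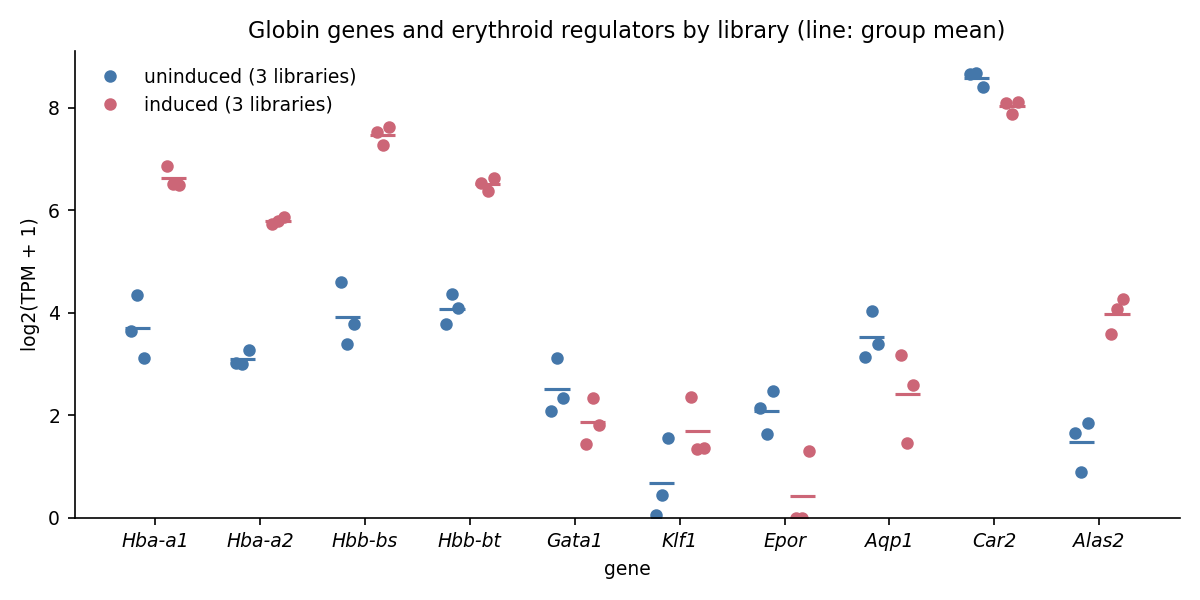
Level of each of the 10 genes in each library, as log2(TPM + 1), with 3 uninduced (blue) and 3 induced (red) libraries per gene and a line at the group mean of the plotted values. The 4 globin genes and Alas2 are higher in every induced library, Epor and Car2 are lower in every induced library, and the groups overlap for Gata1, Klf1 and Aqp1.

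Hba-a1, which encodes an alpha chain, was at 11.5, 19.3 and 7.65 TPM in uninduced and at 116, 90.5 and 89.2 TPM in induced libraries. Its mean went from 12.8 ± 5.94 to 98.5 ± 14.9 TPM (SD, n = 3 each), 7.68 times as high, with a log2 change of 2.93 (SE 0.30). The groups were far apart, and the uninduced libraries varied among themselves.

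Hba-a2, the other alpha gene, was at 7.07, 7.03 and 8.62 TPM in uninduced and at 52.1, 54.0 and 57.5 TPM in induced libraries. Its mean was 7.21 times as high, with a log2 change of 2.70 (SE 0.21). It varied least of the globin genes in both groups.

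Hbb-bs, the beta gene with the highest induced level, was at 23.4, 9.48 and 12.7 TPM in uninduced and at 183, 153 and 196 TPM in induced libraries. The mean went from 15.2 ± 7.29 to 177 ± 22.3 TPM (SD, n = 3 each), 11.7 times as high, with a log2 change of 3.55 (SE 0.29). Among 13470 tested genes this was the 12th highest log2 change, and the highest among the 10 genes.

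Hbb-bt, the second beta gene, was at 12.8, 19.5 and 16.0 TPM in uninduced and at 91.9, 82.3 and 97.7 TPM in induced libraries. Its mean was 5.63 times as high, with a log2 change of 2.44 (SE 0.21). This was the smallest change among the globin genes, and its groups were also well separated.

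Ratios within a library do not depend on the scaling. The alpha pair over the beta pair was 0.512, 0.908 and 0.567 in uninduced and 0.610, 0.614 and 0.499 in induced libraries, which overlap, so both chains were higher in similar proportion. Hba-a1 over Hba-a2 also overlapped, at 1.75 ± 0.937 and 1.81 ± 0.356 (SD, n = 3 each). Hbb-bs over Hbb-bt was 1.83, 0.486 and 0.796 in uninduced and 1.99, 1.86 and 2.01 in induced libraries. The deposited values were thus in a similar ratio in the induced libraries and spread more widely in the uninduced ones, and both rest on the uncertain split of reads between these copies.

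**Figure D2:**
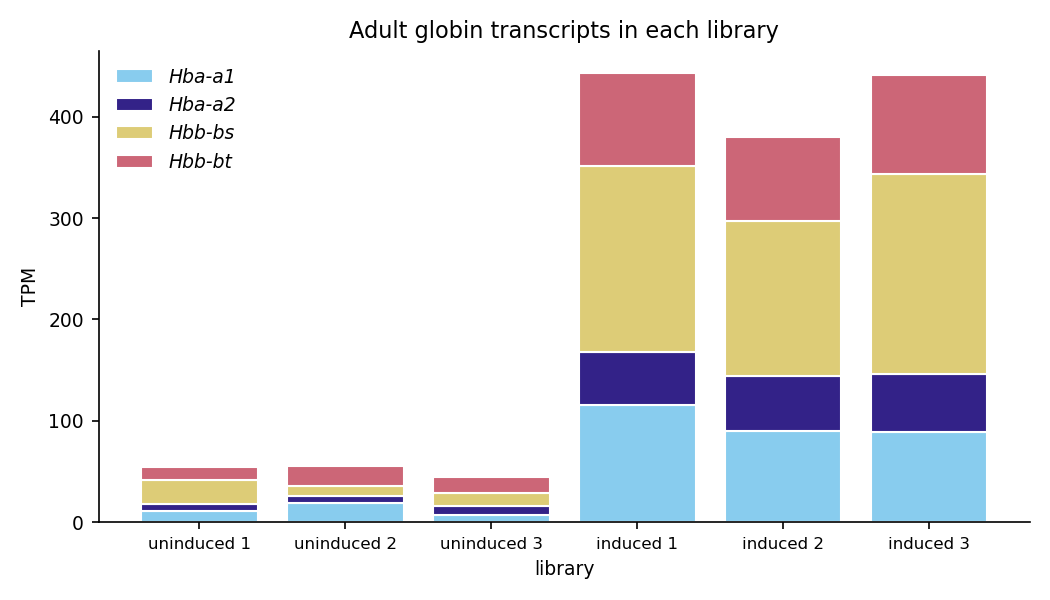
TPM of the 4 adult globin genes stacked for each of the 6 libraries. The bars reach 45.0 to 55.3 TPM in uninduced and 380 to 443 TPM in induced libraries, and Hbb-bs is the largest part of each induced bar.

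The other genes of the globin family were listed at or near 0. Of 12 further globin genes and pseudogenes listed, 10 had a row in the table and none reached the expression minimum. The embryonic genes Hba-x, Hbb-y and Hbb-bh1 were among 9 listed at 0 in all 6 libraries. Hbq1b, a theta-type globin gene, was listed at 2.08 TPM in induced replicate 1 and at 0 in the other libraries. A value listed at 0 here can be a failed estimate and does not show that a transcript was absent.

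Alas2 (ENSMUSG00000025270, chrX:150547375-150570638) encodes the erythroid form of the first enzyme of haem synthesis. It was at 2.17, 0.861 and 2.60 TPM in uninduced and at 11.1, 15.9 and 18.3 TPM in induced libraries. The mean was 8.03 times as high, with a log2 change of 2.51 (SE 0.37), and the groups did not overlap. Among nuclear protein-coding genes its rank moved from between 9007 and 10586 to between 2906 and 4440.

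The transcription factor genes differed from this. Gata1 (ENSMUSG00000031162, chrX:7959260-7978071) was at 3.24, 7.74 and 4.04 TPM in uninduced and at 1.70, 4.08 and 2.51 TPM in induced libraries. The groups overlapped, and the log2 change was -0.65 (SE 0.42), or -0.33 after median-of-ratios scaling and -0.35 without uninduced replicate 2. Alas2 over Gata1 was 0.669, 0.111 and 0.645 in uninduced and 6.52, 3.90 and 7.27 in induced libraries, so the haem enzyme transcript was more abundant per Gata1 transcript in every induced library.

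Klf1 (ENSMUSG00000054191, chr8:84901928-84905291) encodes the factor that acts on the beta globin promoter. It was at 0.0352, 0.363 and 1.94 TPM in uninduced and at 4.11, 1.53 and 1.58 TPM in induced libraries. Uninduced replicate 3 lay above 2 of the induced libraries, so the groups overlapped. The log2 change of 1.00 (SE 0.54) lay between 0.67 and 1.44 as each library in turn was dropped. For a transcript this low it depended on the pseudocount and the scale, at 2.17 with a pseudocount of 0.1, 0.35 with one of 5 and 2.02 on the nuclear protein-coding scale.

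Epor (ENSMUSG00000006235, chr9:21958897-21963506), the erythropoietin receptor gene, was at 3.42, 2.10 and 4.57 TPM in uninduced libraries. It was listed at 0 in induced replicates 1 and 2 and at 1.45 TPM in replicate 3. The groups did not overlap, and the log2 change was -1.65 (SE 0.51). These levels are low, and the change was -3.73 with a pseudocount of 0.1, -0.61 with one of 5 and -2.62 on the nuclear protein-coding scale.

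Aqp1 (ENSMUSG00000004655, chr6:55336432-55348555), which encodes the water channel of the red cell membrane, was at 7.79, 15.4 and 9.54 TPM in uninduced and at 8.03, 1.76 and 5.02 TPM in induced libraries. Induced replicate 1 lay within the uninduced range, and the other 2 lay below it. The log2 change was -1.11 (SE 0.45), and -0.64 without induced replicate 2.

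Car2 (ENSMUSG00000027562, chr3:14886273-14900770), which encodes a cytosolic carbonic anhydrase, had the highest level of the 10 genes in every library. It was at 405, 408 and 340 TPM in uninduced and at 273, 235 and 276 TPM in induced libraries, a log2 change of -0.55 (SE 0.14). Much of this went with the scale: after median-of-ratios scaling the change was -0.15, with every induced library still below the uninduced ones (337, 321 and 321 against 308, 285 and 293). As a share of nuclear protein-coding TPM, rescaled to the same total as the table, the groups overlapped narrowly, at 1357, 1242 and 1276 against 1243, 1144 and 1187. Its rank among 21920 nuclear protein-coding genes was 80 to 87 in uninduced and 91 to 96 in induced libraries. The summed globins over Car2 were 0.135, 0.136 and 0.132 in uninduced and 1.62, 1.62 and 1.60 in induced libraries, the tightest of the ratios computed here within both groups.

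In uninduced cells the order of mean levels in TPM was Car2, then Hbb-bt, Hbb-bs, Hba-a1, Aqp1, Hba-a2, Gata1, Epor, Alas2 and Klf1. Below Car2, each gene's range overlapped that of the next. In induced cells it was Car2 at 261 TPM, Hbb-bs at 177 TPM, Hba-a1 at 98.5 TPM and Hbb-bt at 90.6 TPM, then Hba-a2 at 54.6 TPM and Alas2 at 15.1 TPM. Only Hba-a1 and Hbb-bt of these 6 had overlapping ranges. Aqp1, Gata1, Klf1 and Epor followed, all with means under 5 TPM, with overlapping ranges for Aqp1, Gata1 and Klf1 and a range for Epor below that of Klf1.

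**Figure D3:**
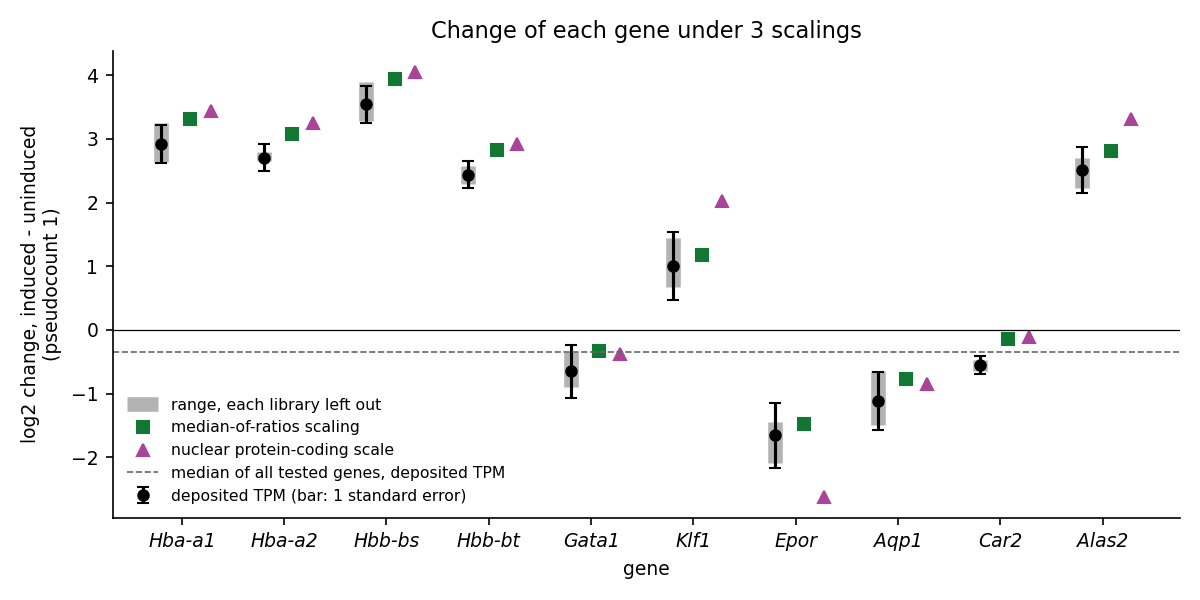
Log2 change of each gene, induced minus uninduced, on the deposited scale (black, bar 1 standard error), after median-of-ratios scaling (green) and scaled to the nuclear protein-coding TPM (purple), with the range when each library is left out in grey. The globin genes, Alas2 and Klf1 are above 0 and Gata1, Epor, Aqp1 and Car2 below 0 under all 3 scales, with Car2 near 0 under the rescaled ones.

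All 10 genes passed the expression minimum. At an adjusted p under 0.05 in limma, 5 were called higher (the 4 globins and Alas2), where 1.29% of all 13470 tested genes were called higher, and 1 was called lower (Car2), where 10.2% were. After median-of-ratios scaling 5 were called higher, where 2.88% of all genes were, and none lower, where 3.1% were. The groups did not overlap with induced cells higher for 5 of the 10, against 4.83% of all genes, and with induced cells lower for 2 (Epor and Car2), against 28.2%. Because the genes were chosen on this contrast, nothing is read from these counts.

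Other genes of the erythroid programme, which are not among the 10, were examined through lists, with limma's test over all genes. Over all genes tested, 174 passed as higher (1.29%) and 1375 as lower (10.2%), which median-of-ratios scaling turned into 388 (2.88%) and 418 (3.1%). Each list count below is to be read beside these shares. Of 15 listed genes called on the deposited scale, only Slc4a1 and Gfi1 were called under all of the 15 alternatives run. Each of the other 13 lost its call when at least 1 library was left out, and Fech, Mafk, Rhd and Slc43a1 did so whichever of the 6 libraries was left out.

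**Figure D4:**
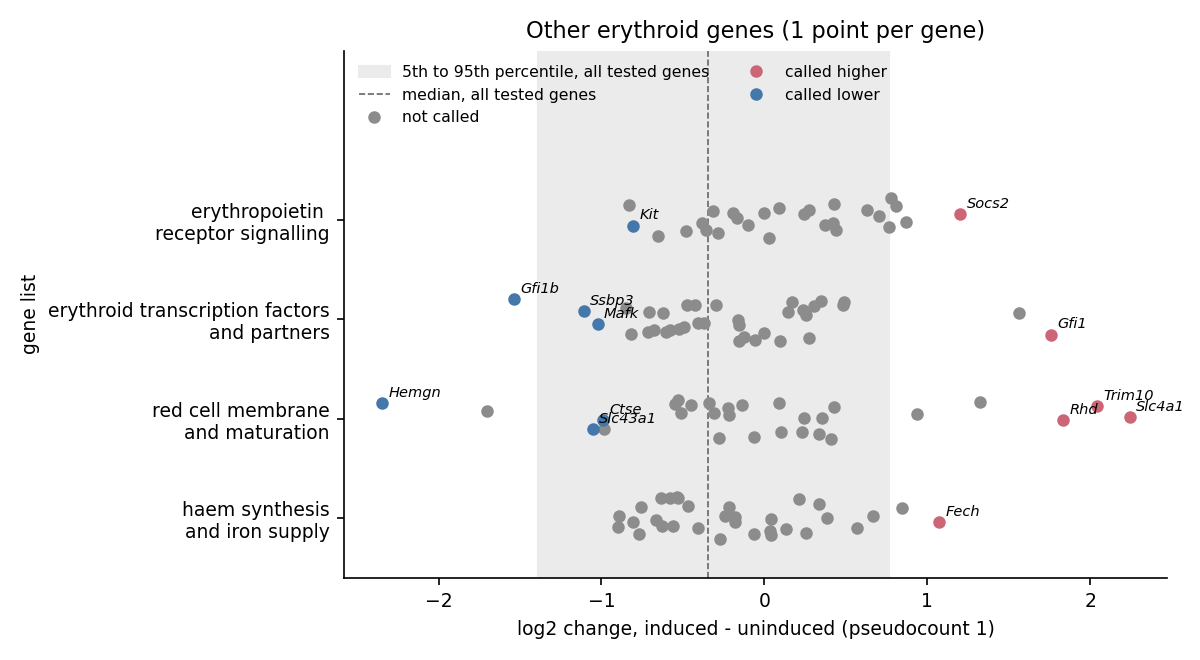
Log2 change, induced minus uninduced, of the tested genes of 4 erythroid lists, with 1 called gene left out and the other called genes named and coloured. The grey band and the dashed line show the 5th to 95th percentile and the median of all tested genes. Most points of each list lie within the band, and Slc4a1 at 2.24 is the highest point.

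In the list of red cell membrane and maturation genes, 4 of 30 tested genes rose, 3 fell and 23 did not pass. Over all tested genes 1.29% rose and 10.2% fell, so the 3 that fell are not read as a result about the list. Slc4a1, the band 3 anion exchanger of the red cell membrane, rose from 2.09, 1.94 and 2.34 TPM to 15.0, 13.5 and 12.8 TPM (log2 change 2.24, SE 0.29, limma adjusted p 0.00259). Rhd, a Rhesus blood group gene, had 0 TPM listed for each uninduced library and rose to 2.60, 1.46 and 4.11 TPM (limma adjusted p 0.0355). Trim10, a gene of terminal erythroid differentiation, rose from 0, 0 and 0.366 TPM to 2.94, 3.44 and 4.47 TPM (limma adjusted p 0.0162). Rhd and Trim10 are low transcripts, and of the genes named here as higher only Slc4a1 reached 5 TPM on average. Rhd and Trim10 met the expression minimum only through their induced libraries, as did the called gene not named here. The uninduced means of Rhd and Trim10 were 0 and 0.122 TPM, so their calls and p-values are descriptive and support nothing.

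The genes of this list that fell were others. Hemgn, which encodes the nuclear protein hemogen of haematopoietic progenitors, fell from 23.2 ± 4.97 TPM to 4.74 ± 3.50 TPM (SD over 3 libraries; log2 change -2.35, limma adjusted p 0.0228). Slc43a1, an amino acid transporter gene, and Ctse, which encodes the protease cathepsin E, fell with log2 changes of -1.05 and -0.99 (limma adjusted p 0.0420 and 0.0223). None of these 3 was called after median-of-ratios scaling, where the log2 change was -1.98 for Hemgn (limma adjusted p 0.0832), -0.69 for Slc43a1 (0.173) and -0.59 for Ctse (0.105). Under that scaling 6 genes of the list rose and 0 fell, the added ones being Cat and Gpx1, which encode enzymes that remove peroxide. The median log2 change of the 30 genes was -0.10 on the deposited scale, against -0.35 for all genes, and 0.28 after median-of-ratios scaling, against 0.0032. Car1, a red cell carbonic anhydrase gene, was listed at 0 in 5 libraries and at 0.262 TPM in induced replicate 2.

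Among genes of haem synthesis and iron supply, 1 of 32 tested genes rose and none fell, beside 1.29% and 10.2% of all tested genes. The 1 that rose is near that share and is not read as a result about the list. Fech, which inserts iron into the ring in the last step of haem synthesis, rose from 5.65 ± 1.39 to 12.9 ± 1.99 TPM (SD over 3 libraries; log2 change 1.07, limma adjusted p 0.0414). Alas1, the form of the first enzyme used in all tissues, was at 11.3 ± 1.64 and 15.1 ± 2.77 TPM (SD over 3 libraries), with a limma adjusted p of 0.363. Tfrc, the transferrin receptor that brings in iron, was at 9.39 ± 4.96 and 4.26 ± 1.27 TPM, and its groups overlapped (limma adjusted p 0.174). After median-of-ratios scaling 2 genes of the list rose, the second being Ftl1, which encodes the ferritin light chain (0.54, limma adjusted p 0.0283). The median change of the list was -0.23, against -0.35 for all genes.

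Among erythroid transcription factors and their partners, 1 of 36 tested genes rose and 3 fell, against 1.29% and 10.2% of all tested genes. These counts are near those shares and are not read as a result about the list. Gfi1, a zinc finger repressor, rose from 3.17 ± 0.894 to 12.9 ± 0.623 TPM (SD over 3 libraries; log2 change 1.76, limma adjusted p 0.00709). Its paralogue Gfi1b, which acts in red cell precursors and megakaryocytes, fell from 21.2 ± 6.80 to 6.97 ± 3.63 TPM (SD over 3 libraries; log2 change -1.54, limma adjusted p 0.0276), and was not called after median-of-ratios scaling (-1.17, limma adjusted p 0.116). Ssbp3, a cofactor that binds LDB1, and Mafk, a partner of NFE2, fell with log2 changes of -1.11 and -1.02 (limma adjusted p 0.0252 and 0.0329). Neither was called after that scaling, when Lmo2, a partner of TAL1, rose beside Gfi1.

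Some well-known factors of the list did not pass. Tal1, a partner of GATA1, was at 10.2, 44.7 and 5.28 TPM in uninduced and at 38.6, 49.7 and 40.2 TPM in induced libraries (limma adjusted p 0.111). Uninduced replicate 2 was alone at the induced level, and of the 15 alternatives Tal1 passed under 1, without that library (limma adjusted p 0.0146). Zfpm1, the GATA1 cofactor FOG1, was at 108 ± 13.1 and 67.8 ± 22.3 TPM (SD, n = 3 each, limma adjusted p 0.0863). Nfe2 (limma adjusted p 0.127), the myeloid factor gene Spi1 (0.217) and Gata2 (0.674), the factor that GATA1 replaces in red cell differentiation, did not pass either. Of the 15 alternatives, Spi1 passed under 1, the nuclear protein-coding scale (log2 change 0.93, limma adjusted p 0.0345), and Nfe2 under 1, without induced replicate 1 (-0.90, limma adjusted p 0.0430).

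Among erythropoietin receptor signalling genes, 1 of 27 tested genes rose and 1 fell, where 1.29% and 10.2% of all tested genes did. Nothing about the list is read from these counts. Socs2, a feedback inhibitor of cytokine receptors, rose from 24.6 ± 9.53 to 55.8 ± 10.2 TPM (SD over 3 libraries; log2 change 1.20, limma adjusted p 0.0277). Kit, the stem cell factor receptor gene, fell by 0.81 on the log2 scale (limma adjusted p 0.0354) and was not called after median-of-ratios scaling. That scaling gave 5 genes that rose, Socs2 with Socs3, Pim1, Pik3r1 and Csf2rb, where 2.88% of all tested genes rose. Jak2, the kinase bound to EPOR, was at 22.9 ± 3.81 and 21.2 ± 2.75 TPM (SD, n = 3 each, limma adjusted p 0.806). Bcl2l1, an anti-apoptotic target of the pathway, had a limma adjusted p of 0.690.

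The relatives of Car2 and Aqp1 were sparse. Of 15 other carbonic anhydrase genes 3 reached the expression minimum, and none passed. Of 11 other aquaporin genes only Aqp9, a water and glycerol channel gene, reached it. Aqp9 fell from 7.82 ± 1.83 to 2.73 ± 0.185 TPM (SD over 3 libraries; log2 change -1.22, limma adjusted p 0.0407), a call lost after median-of-ratios scaling.

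The libraries were checked for markers of the labelled cell type and of other cells, since in bulk samples more cells of a type and more RNA per cell cannot be told apart. Summed over 12 stem cell markers, of which none was at 0 throughout, the level was 586 to 744 TPM in uninduced and 687 to 751 TPM in induced libraries, with 6 markers higher and 3 lower in every induced library. For all such counts of single markers, the share over all tested genes was 4.83% higher and 28.2% lower in every induced library. The marker counts also include genes under the expression minimum of 1 TPM, which these shares leave out. Late red cell markers, which share Slc4a1, Rhd and Trim10, among others, with the list above, summed to 4.41 to 5.91 TPM and 27.7 to 35.8 TPM over the 10 of 11 markers that had a row. No late red cell marker was at 0 in all libraries. Macrophage and monocyte markers, with 2 of 14 at 0 throughout (Siglec1 and Fcgr1), summed to 5.88 to 8.07 TPM and 12.0 to 16.98 TPM. The sums of these 2 lists were higher in every induced library, as the globins were. The macrophage sum rested on different genes in different libraries. Cd68 was at 9.66 and 10.8 TPM in induced replicates 2 and 3. In induced replicate 1 Cd68 was at 1.99 TPM, within its uninduced range of 0.991 to 4.09 TPM, and C1qa was at 5.01 TPM. Of single markers, 4 of 10 late red cell and 1 of 14 macrophage markers were higher in every induced library, and 1 macrophage marker (Ccr2) was lower in each, and the macrophage counts are not read as a result about that list. Their part in the globin values was not tested.

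Mast cell, basophil and eosinophil markers summed to 54.7 to 75.8 TPM in uninduced and 83.6 to 102 TPM in induced libraries, also without overlap, and their part was likewise not tested. Of the 15, Prss34, Fcer1a, Gzmb, Cma1, Tpsb2 and Mcpt4 were at 0 in all libraries, and Prg2, an eosinophil granule gene, made up most of the sum. Prg2 and Prg3 were the 2 of 15 that were higher in every induced library. The sum over 13 megakaryocyte and platelet markers (Treml1 at 0) was lower in induced libraries, at 205 to 262 TPM against 176 to 184 TPM, although 3 markers (Pf4, Ppbp and Gp6) were higher in every induced library and 5 were lower. The sum over 13 neutrophil markers was also lower, at 219 to 243 TPM against 159 to 178 TPM, with 3 of the 13 markers lower in every induced library, where 28.2% of all tested genes were. Prtn3, a neutrophil granule protease gene, went the other way, from 19.5, 21.01 and 16.1 TPM to 44.2, 47.4 and 35.4 TPM. Sums of endothelial markers overlapped (11, Stab2 at 0), at 122 to 161 TPM and 151 to 170.3 TPM, with 1 of the 11 (Pecam1) higher in every induced library. B cell markers, with 7 of 10 at 0, and T and NK cell markers, with 6 of 10 at 0, stayed under 32 TPM in sum, and both sums were lower in induced libraries. Cd3e was among those at 0. After median-of-ratios scaling, which was applied to these sums after they had been seen, the megakaryocyte, neutrophil, B cell and T and NK cell sums overlapped between the groups, at 190 to 206 and 196 to 213 TPM for megakaryocyte markers and at 191 to 207 and 180.1 to 200.5 TPM for neutrophil markers. On that scale the endothelial sum was higher in every induced library, at 102 to 126 and 178 to 183 TPM, and so was the stem cell sum, at 549 to 585 and 796 to 845 TPM. The late red cell, macrophage, and mast cell, basophil and eosinophil sums were higher in every induced library on both scales. The part of the endothelial and stem cell sums in the globin values was not tested.

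**Figure D5:**
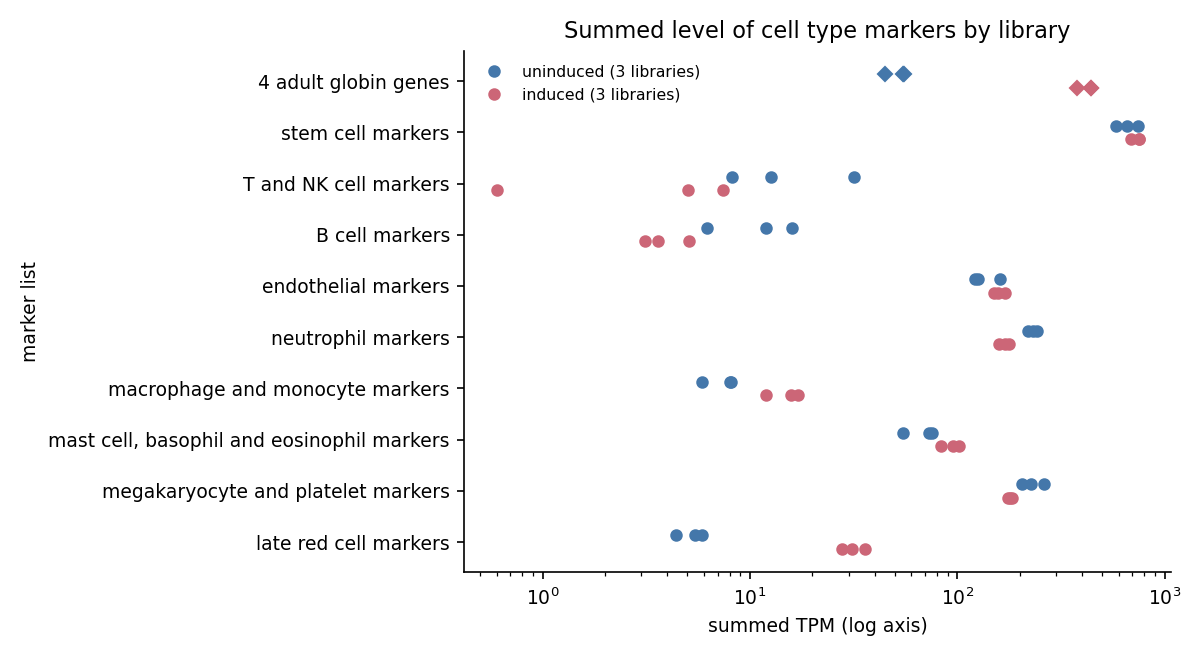
Summed TPM of 9 marker lists and of the 4 adult globin genes, on a log axis, for 3 uninduced (blue) and 3 induced (red) libraries. Late red cell markers reach 27.7 to 35.8 TPM in induced libraries, where the globins reach 380 to 443 TPM, and the stem cell marker sums overlap between groups on this deposited scale.

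The genes whose pattern over the 6 libraries was most like the mean of the 4 globins on the log2(TPM + 1) scale were Mtmr9 (Pearson r 0.999), Skint3, Gm27029, C4b and Zrsr1 (r 0.998). Mtmr9 was at 8.76, 9.65 and 8.22 TPM in uninduced and at 93.2, 89.0 and 106 TPM in induced libraries. In all, 93 genes outside the 10 had an r above 0.95. These correlations describe 6 libraries in 2 groups, so any gene with a large and even group difference scores high. Of the other genes in the set, Alas2 had an r of 0.95, Klf1 0.65, Gata1 -0.63, Aqp1 -0.67, Epor -0.86 and Car2 -0.90.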

How the data were processed

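Total RNA from sorted cells was sequenced as stranded paired-end libraries, per the labels' protocols. The authors deposited 1 table of TPM with a column per library; its name gives StringTie. The submitters' processing notes name bcl2fastq, HISAT2, StringTie, DESeq2 and the build GRCm38, without roles or versions. GC content in percent is given per the file headers. Depth is unknown.

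Rows were summed per gene ID (60496 rows, 5025 of them repeats). Testing took genes whose mean reached 1 TPM, used the log2(TPM + 1) scale and was run in limma 3.58.1 under R 4.3.3 (variance trend, two-sided, Benjamini-Hochberg adjustment, threshold 0.05). The fit was also run on simulated data, and that outcome is not reported here. Fold changes on this scale understate low genes. Gene positions and transcripts are from GENCODE M21, and promoters from RefSeq; sequences were aligned with Biopython 1.88.

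The 10 genes and all lists were chosen with earlier results of these data known. All 10 genes are named. Of each list, up to 4 called genes per direction are named by size of change. Also to be named were 15 genes whatever their values, apart from those not analysed or not reported here. Some genes in counts of 5 or fewer are named too, such as Ftl1, Cat, Gpx1, Lmo2, Socs3, Pim1, Pik3r1 and Csf2rb. Others were singled out, such as Hbq1b, Prg2, Prg3, Prtn3, Pf4, Ppbp, Gp6, Ccr2, Cd68, C1qa and Pecam1. Both kinds were chosen after their values were seen. The 5 most similar genes were taken by Pearson r. Groups and the replicate numbers 1 to 3 come from the titles. Ahsp, Hbb-b1 and Hbb-b2 were not analysed here, and some listed genes enter the counts and sums but are not reported here by name.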

Additional observations from a re-analysis of the deposited data

How the results depend on the processing

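The calls were recomputed under 9 other settings and with each library left out. Calls among the 10 genes are counted here as a description, since this contrast chose them. Gata1, Klf1 and Epor do not enter at a mean of at least 5 TPM. Genes called higher (174) and lower (1375) overall became 96 and 656 with every gene kept, 388 and 418 with median-of-ratios scaling, 374 and 440 after quantile normalization, 435 and 451 on the nuclear protein-coding scale and 108 and 659 without the variance trend. Leaving out a library gave 69 to 128 higher and 494 to 1070 lower.

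The Car2 call (1 lower) became 0 without the filter, without the trend, with the replicate block and under the 3 rescalings (median-of-ratios, quantile, nuclear protein-coding), and was 0 to 1 with a library left out. It was lost without uninduced replicate 1 or 2 and without induced replicate 1 or 2. Red cell membrane genes called higher (4) became 1 at a mean of at least 5 TPM, 2 with the block and 1 to 3 with a library left out. Those called lower (3) became 1 with the block, 0 to 2 with a library left out, and 0 without the filter, without the trend and under the 3 rescalings. Transcription factors called higher (1) became 2 under median-of-ratios scaling and 5 on the nuclear protein-coding scale, and 1 to 2 with a library left out; those called lower (3) became 1 with the block, 0 to 2 with a library left out, and 0 without the filter, without the trend and under the 3 rescalings. Haem and iron genes called higher (1) became 2 under median-of-ratios scaling and on the nuclear protein-coding scale, and 0 without the filter, without the trend, with the block and with any library left out. Receptor signalling genes called higher (1) became 5 after median-of-ratios or quantile scaling, 8 on the nuclear protein-coding scale, 0 without the filter and the trend, and 0 to 1 with a library left out. Those called lower (1) became 0 without the filter, without the trend, with the block and under the 3 rescalings, and 0 to 1 with a library left out. Aquaporins called lower (1) became 0 without the filter, at a mean of at least 5 TPM, with the block and under the 3 rescalings, and 0 to 1 with a library left out. The cause was not tested, other than that fewer libraries or genes enter some settings.

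In the order median-of-ratios, quantile and nuclear protein-coding scale, log2 changes that were below 0 turned to 0.095, 0.095 and 0.14 for Bcl2l1, 0.25, 0.25 and 0.28 for Gata2 and 0.29, 0.29 and 0.33 for Jak2. With a library left out they ranged from -0.72 to 0.12, from -0.28 to 0.074 and from -0.21 to 0.019. None of these passed. The mean ratio of Hbb-bs over Hbb-bt in uninduced libraries, 1.04, became 0.641 without replicate 1.

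The titles give both groups the numbers 1 to 3, but no label says that same-numbered libraries are related. Deviations from the group means correlated at 0.0215, -0.0152 and 0.0172 between same-numbered libraries, and 3 of 6 libraries correlated best with their own. With 3 libraries per group these values cannot show whether same-numbered libraries are related, so the relation is unknown. With the replicate block 902 genes passed, 120 higher and 782 lower, against 1549 without it.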
